A study of Mus musculus with 6 samples.

Results

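The genes described here carry glucose into the heart muscle cell and through glycolysis: the transporters Slc2a1 and Slc2a4, the hexokinases Hk1 and Hk2, Pfkm, Aldoa, Gapdh, Pgk1 and Pkm, together with Pdk4, which decides how much of the pyruvate is burned. They were taken by symbol from a table of FPKM, a level of fragments relative to transcript length and library size, in which these 10 genes are among 30914 rows. Aldoa has a second row, so that 11 rows carry the 10 symbols. All 10 passed the filter on low values, which kept 13089 rows. The libraries come from hearts of wild-type male C57BL/6J mice that were 8 weeks old at the start. All animals received angiotensin II (Ang II) by osmotic pump at 1 μg/kg/min for 4 weeks, which induces cardiac hypertrophy. The Ang II + Tec group also received tectochrysin (Tec), a flavone, at 5 mg/kg during the last 2 weeks. Each group has 3 libraries and no library comes from an untreated heart, so the effect of Ang II itself cannot be read from them. The labels do not say whether a library is 1 animal or a pool, so that a p-value measures only the spread between these libraries.

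Glucose enters heart cells through GLUT1, made from Slc2a1, which sits in the surface membrane, and GLUT4, made from Slc2a4, which insulin and contraction bring to the surface. Hexokinase traps the sugar, phosphofructokinase commits it to glycolysis, and aldolase, GAPDH, phosphoglycerate kinase and pyruvate kinase carry it to pyruvate. Pyruvate dehydrogenase kinases such as PDK4 switch off pyruvate dehydrogenase, the enzyme that commits pyruvate to oxidation inside the mitochondrion, and the adult heart, which burns mostly fatty acids, makes much PDK4 when fatty acids are plentiful. Hypertrophied hearts are known to lean more on glucose. GAPDH is also the protein most often used as a loading reference, in this study too. The values below are RNA levels and do not measure the GAPDH protein. Mammalian genomes hold many processed pseudogenes of Gapdh, that is, intronless copies made from its messenger RNA.

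None of the 10 genes passed the threshold for a difference between the groups in a limma fit over all tested rows, with Benjamini-Hochberg adjusted p-values between 0.229 for Pgk1 and 0.988 for Pdk4, where 0.183% of all tested rows passed an adjusted p of 0.05. At an unadjusted p of 0.05, Pgk1 alone was lower with Tec, 1 of 10 genes, where 16.5% of all tested rows were lower, and 0 of 10 were higher, where 2.09% of rows were. Pgk1 was also the 1 gene whose groups did not overlap on the lower side, where 18.9% of rows did not, and 0 of 10 were higher without overlap, where 2.9% of rows were. The mean of log2(FPKM + 1) was lower with Tec for 6 of 10 genes, where 80% of all tested rows had a lower one. Pdk4 is not among the 6, although its mean FPKM was 100.4 with Ang II and 97.5 with Tec. The median log2 fold change was -0.12 for the 10 genes and -0.17 for all tested rows. Here and below a log2 fold change is a difference of log2(FPKM + 1), Ang II + Tec against Ang II, with its standard error (SE).

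The libraries stood apart from each other in ways that the labels do not give. The 4 markers of atrial muscle (Myl7, Sln, Myl4 and Bmp10) summed to 637, 797 and 0.61 FPKM in Ang II replicates 1, 2 and 3 and to 0.29, 1568 and 2.62 FPKM in Ang II + Tec replicates 1, 2 and 3. Myl7, the most abundant of them, was listed at 0 in Ang II replicate 3 and Ang II + Tec replicate 1. The 7 fibroblast markers summed to 769.96, 1017 and 169 FPKM in the Ang II libraries and to 139, 229 and 154 FPKM with Tec, so Ang II replicate 3 lay within the range of the Tec group. All 7 had a lower mean with Tec, where 80% of all tested rows did. At an unadjusted p of 0.05 (limma) 5 of the 7 were lower, where 16.5% of rows were. Of the 7, 0 passed an adjusted p of 0.05, where 0.183% of rows did. Mitochondrial genes took 41.3%, 40.1% and 48.9% of the summed FPKM in the Ang II libraries and 51.3%, 49.6% and 52.5% with Tec. The 8 cardiomyocyte markers, led by Actc1, were abundant in every library, with sums between 8705 and 10761 FPKM. The 6 macrophage markers, led by C1qa, summed to 102, 128 and 72.6 FPKM with Ang II and to 46.1, 49.4 and 52.8 FPKM with Tec. All 6 had a lower mean with Tec, 5 of them at an unadjusted p of 0.05 (limma), and 0 passed an adjusted p of 0.05. Endothelial markers (5 genes, led by Cdh5) summed to between 58.8 and 72.6 FPKM. Liver markers stayed at or under 0.75 FPKM in sum. The 5 erythroid markers, led by Hbb-bs, summed to 648, 1018 and 248 FPKM with Ang II and to 526, 376 and 147 FPKM with Tec. The 5 adipocyte markers, led by Cidec, reached 62.9 FPKM in Ang II + Tec replicate 2 and at most 9.93 FPKM elsewhere. The skeletal muscle markers in the table, led by Tnnt3, summed to 43.7 FPKM in Ang II replicate 2 and to at most 8.06 FPKM elsewhere. Of these, Mylpf, a light chain of fast skeletal muscle, was the 1 called marker, at 0.58, 0.56 and 0.22 FPKM against 4.14, 3.44 and 4.55 FPKM (log2 fold change 1.80, SE 0.15, adjusted p = 0.0142, limma). Smooth muscle and pericyte markers (5 genes, led by Rgs5) summed to between 168 and 417 FPKM. How far these differences enter the values below was not tested, and in whole tissue fewer cells of a type and less RNA per cell cannot be told apart.

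**Figure D1:**
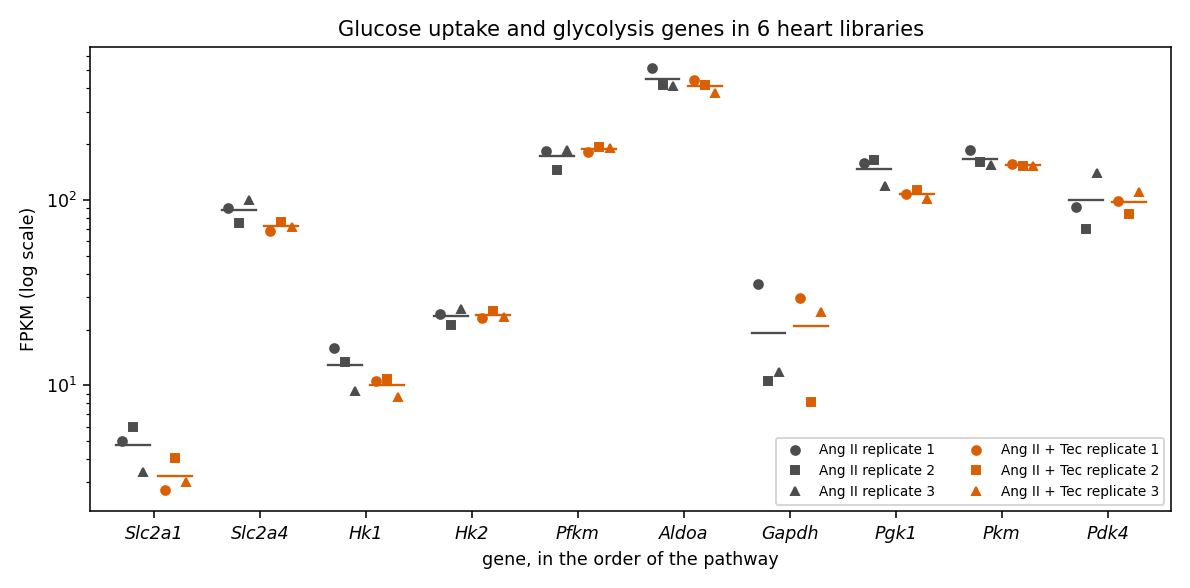
FPKM on a log scale of the 10 genes in the 3 Ang II libraries (grey) and the 3 Ang II + Tec libraries (orange), 1 point per library, with horizontal bars at the group means. Of these rows Aldoa is the highest, from 376 to 512 FPKM, and the Gapdh row shows the widest scatter within both groups. The Gapdh row leaves out the near-identical copies of Gapdh.

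The plot of FPKM by library shows a steep order of levels. Aldoa had the highest mean over the 6 libraries, 429.7 FPKM, followed by Pfkm (180 FPKM), Pkm (160 FPKM), Pgk1 (127 FPKM), Pdk4 (98.9 FPKM), Slc2a4 (80.4 FPKM), Hk2 (23.8 FPKM), the Gapdh row (20.02 FPKM), Hk1 (11.4 FPKM) and Slc2a1 (4.02 FPKM). The ranges over the 6 libraries did not overlap between Aldoa and Pfkm, between Slc2a4 and Hk2, or between Hk1 and Slc2a1. The other neighbours in the order overlapped. The place of the Gapdh row is uncertain, since Gapdh and its near-identical copies, described below, summed to between 2031 and 2612 FPKM. The row was between 0.401% and 1.45% of that sum.

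Of the transporters, Slc2a4 measured 91.0, 75.6 and 99.6 FPKM with Ang II alone against 68.3, 76.0 and 71.9 FPKM with Tec. The groups overlapped, since Ang II replicate 2 lay just under Ang II + Tec replicate 2. The log2 fold change was -0.29 (SE 0.13, adjusted p = 0.287, limma), which came to -0.046 after median-of-ratios scaling and -0.048 after quantile normalization, and to -0.50 in the libraries with little atrial marker RNA. Slc2a1, the insulin-independent transporter, was at 4.99, 5.94 and 3.39 FPKM against 2.72, 4.04 and 3.02 FPKM, with Ang II replicate 3 inside the range of the Tec group. Its log2 fold change was -0.43 (SE 0.20, adjusted p = 0.294), which came to -0.23 after median-of-ratios scaling. Without Ang II replicate 3 it was -0.61 (adjusted p = 0.0291, limma, where 28.8% of all rows were called). Without Ang II replicate 2 it was -0.28, and in the libraries with little atrial marker RNA -0.18. Slc2a4 made up 84.0% to 90.2% of the FPKM of the 6 transporter genes compared (Slc2a1, Slc2a3, Slc2a4, Slc2a8, Slc2a10 and Slc2a12), and Slc2a1 3.07% to 6.60%.

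Hexokinase 2 is the insulin-responsive form that predominates in adult muscle, and hexokinase 1 is the form found in nearly all cells. Hk2 had the smallest SD of log2(FPKM + 1) of the 10 genes as deposited (0.0999, and 0.243 after median-of-ratios scaling, where Pgk1 had the smallest, 0.129), at 24.3, 21.1 and 25.9 FPKM with Ang II and 23.0, 25.0 and 23.5 FPKM with Tec. The 95% interval of its log2 fold change ran from -0.26 to 0.28. Hk1 was at 15.8, 13.4 and 9.27 FPKM against 10.6, 10.8 and 8.62 FPKM, with the 2 highest values in Ang II replicates 1 and 2, and differed by -0.30 (log2, SE 0.20, adjusted p = 0.392). That difference came to -0.077 after median-of-ratios scaling, to -0.50 without Ang II replicate 3 (adjusted p = 0.0321, limma) and to 0.041 in the 3 libraries with little atrial marker RNA. Hk2 thus held 60.03% to 73.0% of the hexokinase FPKM in each library, and Hk3 at most 1.02%.

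Pfkm, the muscle subunit of phosphofructokinase, was at 184, 145 and 186 FPKM with Ang II and at 182, 193 and 191 FPKM with Tec, where Ang II replicate 2 was the single low library. Its log2 fold change was 0.14 (SE 0.13, adjusted p = 0.525), which came to 0.028 without Ang II replicate 2, 0.0048 in the libraries with little atrial marker RNA, 0.30 with array weights and 0.39 after median-of-ratios scaling. The liver and platelet subunits, Pfkl and Pfkp, leaned the other way. Pfkl was at 17.2, 13.7 and 12.0 FPKM against 10.5, 11.8 and 10.9 FPKM, a log2 fold change of -0.33 (SE 0.14, adjusted p = 0.274). Pfkm made up 88.2% to 93.45% of the FPKM of the 3 subunits. Aldoa, the muscle aldolase, was at 512, 418 and 414 FPKM against 442, 416 and 376 FPKM, groups that overlapped (log2 fold change -0.12, SE 0.14). That value was -0.019 without Ang II replicate 1, -0.021 in the libraries with little atrial marker RNA and 0.13 after median-of-ratios scaling. The second Aldoa row, which starts 39 bases from the end of the first, was listed at 0.06 to 0.30 FPKM and was not tested.

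Pgk1, phosphoglycerate kinase, makes the first ATP of glycolysis and lies on the X chromosome (GRCm38 chrX:106187100-106203699, plus strand). It measured 158, 163 and 119 FPKM with Ang II alone against 108, 113 and 101 FPKM with Tec, so that every Tec library was below every Ang II library. Ang II replicate 3 was the nearest to the Tec group. The log2 fold change was -0.44 (SE 0.15, 95% interval -0.79 to -0.089), which did not pass the adjusted threshold (adjusted p = 0.229, unadjusted p = 0.0206 from the limma fit). After median-of-ratios scaling, which brings the median of all genes to 0.0087, Pgk1 was at -0.19 (adjusted p = 0.430). In the 3 libraries with little atrial marker RNA its difference was -0.19. Without Ang II replicate 3 it was -0.58 (adjusted p = 0.00893, limma), where 28.8% of all tested rows were called, and with array weights -0.58 (adjusted p = 0.0280), where 27.1% were. Tpi1, triose phosphate isomerase, acts before GAPDH and was named after its values were seen. It was at 302, 276 and 226 FPKM against 224, 201 and 208 FPKM, a log2 fold change of -0.34 (SE 0.14, adjusted p = 0.262, limma). Every Tec library was lower, as for 18.9% of all tested rows.

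Pkm, pyruvate kinase, was at 186, 161 and 155 FPKM with Ang II and at 157, 152 and 153 FPKM with Tec, and its log2 fold change was -0.11 (SE 0.11, adjusted p = 0.564). The direction turned after median-of-ratios scaling (0.13) and quantile normalization (0.090), and the value was -0.034 without Ang II replicate 1. The table has 1 row for Pkm, so its M1 and M2 isoforms are not told apart. Pdk4 was at 92.0, 69.8 and 139 FPKM against 98.7, 83.6 and 110 FPKM, with its highest and its lowest value in the same group. Its difference of 0.0067 (log2, SE 0.25) has a 95% interval from -0.58 to 0.59. The difference was 0.25 after median-of-ratios scaling, 0.26 after quantile normalization and 0.39 with array weights. It was -0.42 in the libraries with little atrial marker RNA and ran from -0.22 to 0.27 when single libraries were left out. Pdk4 was the largest of the 4 pyruvate dehydrogenase kinases, with 47.2% to 63.0% of their FPKM, ahead of Pdk2 with 30.7% to 43.3%. Pdk2 was at 57.3, 44.9 and 67.98 FPKM against 69.1, 76.6 and 69.2 FPKM, a log2 fold change of 0.35 (SE 0.16, adjusted p = 0.290, limma). It was higher in every Tec library, as were 2.9% of all tested rows.

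**Figure D2:**
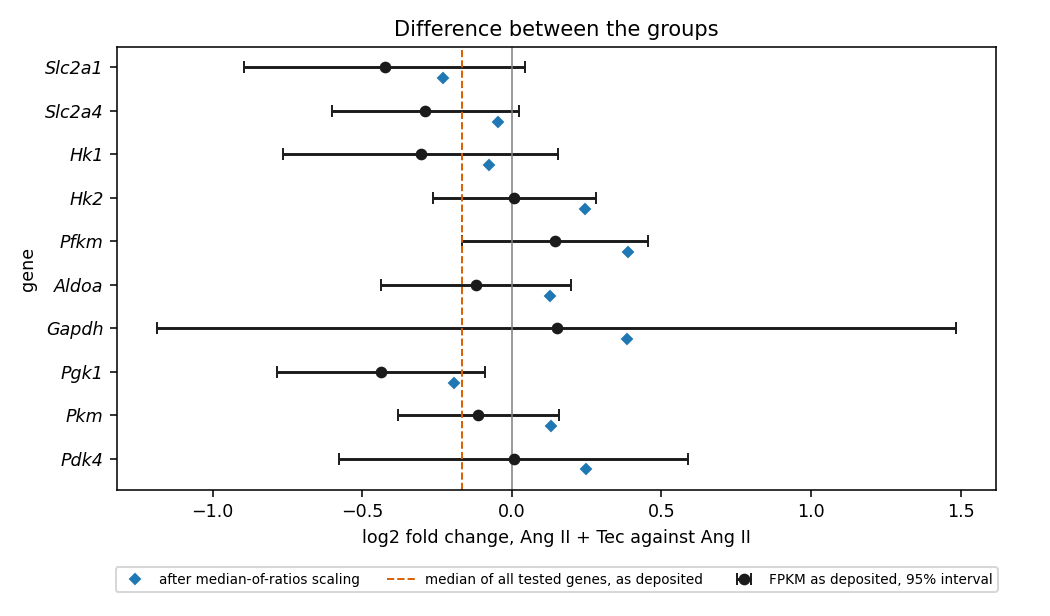
Log2 fold changes, Ang II + Tec against Ang II, of the 10 genes with 95% intervals from limma on FPKM as deposited (black), and after median-of-ratios scaling (blue), with the median of all tested rows (-0.17) as a dashed line. As deposited, the interval of Pgk1 alone leaves out 0, and scaling moves every gene upward.

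The Gapdh row cannot be read like the others. It measured 35.0, 10.6 and 11.8 FPKM with Ang II alone against 29.7, 8.14 and 24.9 FPKM with Tec, a 4.30-fold range that cuts across the groups: Ang II replicate 1 and Ang II + Tec replicates 1 and 3 were high, and the other 3 libraries were low. Its log2 fold change was 0.15 (SE 0.57, adjusted p = 0.884, limma), and the 95% interval ran from -1.19 to 1.49. The value ran from -0.18 to 0.69 when single libraries were left out. It was 1.15 in the libraries with little atrial marker RNA and 0.996 with array weights. The gene lies at GRCm38 chr6:125161715-125165773 on the minus strand in the deposited table, and it is 1 of 3 members, with Slc2a4 and Pfkm, for which GENCODE M21 gives another position for an end. Of all rows with a mean of at least 1 FPKM, 2.44% had a larger SD of log2(FPKM + 1).

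A search of the Gapdh transcript against all GENCODE M21 transcripts found 40 other rows of the table that match it at 98% identity or more over at least 300 bases, of which 38 are processed pseudogenes. Part of the coding sequence (bases 142 to 201 of 1002) is shown for Gapdh and for Gm3200, a pseudogene on chromosome 7. The stretch was chosen because no other of its length holds more differences between Gm3200 and Gapdh. Capitals mark the bases at which the copy differs from Gapdh. The pseudogenes Gm12671 and Gm5559 read the same as Gapdh throughout this stretch. Gm12671 matches the whole coding sequence and Gm5559 differs from it at 1 base, while Gm3200 differs at 14.
Gapdh: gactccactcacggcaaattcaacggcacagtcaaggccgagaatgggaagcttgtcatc
Gm3200: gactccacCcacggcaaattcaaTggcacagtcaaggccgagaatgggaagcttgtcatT

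The 25 copies with at least 99% identity to Gapdh summed to between 2000.3 and 2549 FPKM, and the 15 copies under 99% identity reached a mean of at most 5.43 FPKM. Gm5559, at GRCm38 chr5:95861714-95862715, was at 283, 281 and 283 FPKM with Ang II and at 277, 234 and 242 FPKM with Tec. Gm12671, at chr4:91851668-91852669, was at 215, 203 and 204 FPKM against 246, 190.01 and 205 FPKM. Both were far above the Gapdh row in every library and far steadier. Gm3200, at chr7:100760805-100761806, was at 0.37 to 0.64 FPKM. Of the 40 copies, 10 had a mean of at least 100 FPKM, the lowest identity to Gapdh among them being 99.8%, and 16 had a higher mean than the Gapdh row. Fragments from an identical stretch cannot be assigned to 1 of these rows by sequence, so which row they were counted in depends on how the counting placed them, and the values of Gapdh and of each copy are uncertain.

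Gapdh and its 40 copies together summed to 2422, 2299 and 2309 FPKM with Ang II and to 2612, 2031 and 2193 FPKM with Tec, with means of 2343 ± 68.1 and 2278 ± 299.6 (SD, n = 3). The Gapdh row was between 0.401% and 1.45% of that sum. The summed value varied 1.29-fold over the 6 libraries, with an SD of log2(FPKM + 1) of 0.123 against 0.833 for the row alone. The row is too small a part of the sum to shape its SD, which is set by the copies. The 10 copies with a mean of at least 100 FPKM had SDs of 0.115 to 0.141. The log2 fold change of the sum was -0.048 (SE 0.14, adjusted p = 0.847, limma). A stricter identity of 99% (25 copies) and a looser one of 95% (75 copies) gave SDs of 0.122 and 0.124. Pgk1, in contrast, held 94.1% to 95.3% of the sum with its 3 copies and Pkm 97.9% to 98.3% with its 1 copy, and the other members had none. The copies are rows of different length, so a sum of their FPKM is a sum of levels per length.

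**Figure D3:**
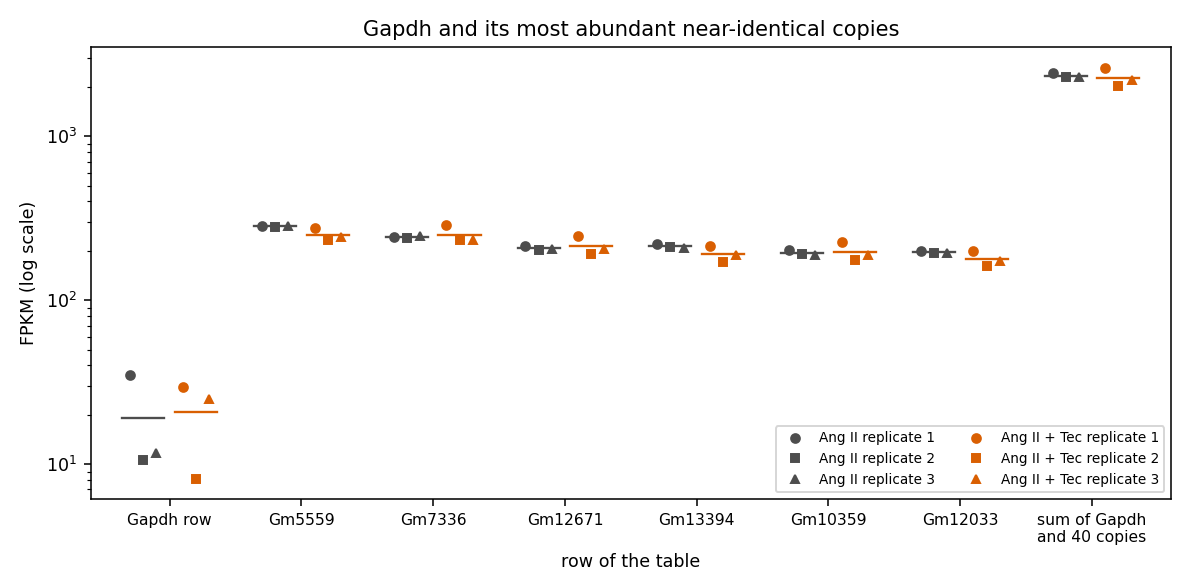
FPKM on a log scale of the Gapdh row, its 6 most abundant near-identical copies, and the sum of Gapdh and all 40 copies, 1 point per library (Ang II grey, Ang II + Tec orange) with bars at the group means. The row scatters from 8.14 to 35.0 FPKM while the sum stays between 2031 and 2612 FPKM.

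The Gapdh row was set beside 13 other genes often used as references, and varied more than all of them except Tfrc. Tfrc, the transferrin receptor, ranged from 6.33 to 35.4 FPKM (SD of log2(FPKM + 1) 1.11). It was lower in every Tec library, as were 18.9% of all tested rows, at -1.86 (log2, SE 0.30, adjusted p = 0.115, limma). By this SD Tbp, a general transcription factor, and Sdha, a subunit of succinate dehydrogenase, varied least, at 0.141 and 0.240. Tbp was at only 0.67 to 1.17 FPKM, where adding 1 FPKM compresses the log2 spread. As a share of the mean FPKM, the SD was 18.5% for Tbp, 15.7% for Sdha and 8.55% for Gapdh with its copies. Actb is another common reference, and the study lists qPCR primers for it. It was at 99.87, 125 and 55.5 FPKM against 41.0, 60.4 and 44.5 FPKM, with a log2 fold change of -0.87 (SE 0.30, adjusted p = 0.229, limma). With its copies summed, Gapdh was less variable than each of the 13. After median-of-ratios scaling the SD of the sum was 0.253 and those of Tbp and Sdha were 0.0990 and 0.420, so this place in the order depends on the scaling. Ppia also shares its signal with copies, and its own row held 11.1% to 60.3% of the sum. There the SD was 0.689 for the row and 0.782 for the sum, so the sum was not steadier than the row.

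**Figure D4:**
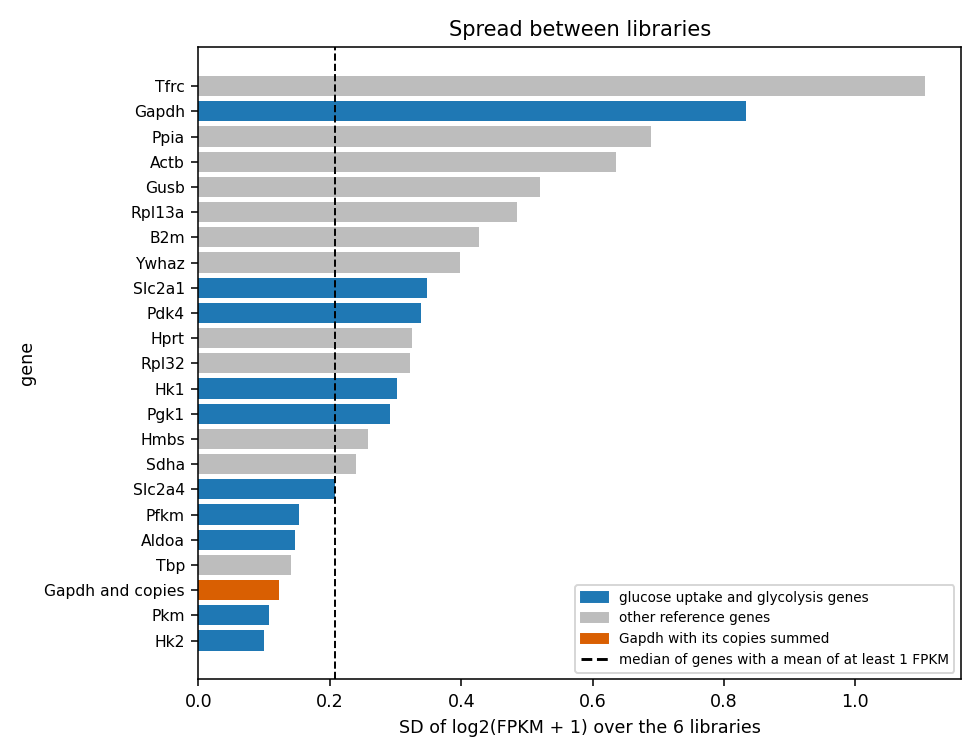
SD of log2(FPKM + 1) over the 6 libraries for the glucose uptake and glycolysis genes (blue), other reference genes (grey) and Gapdh with its copies summed (orange), with the median of genes with a mean of at least 1 FPKM (0.207) as a dashed line. The Gapdh row is at 0.833 and the sum, which consists almost wholly of the copies, at 0.123.

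The spread of the other members ran from 0.0999 for Hk2 and 0.108 for Pkm to 0.339 for Pdk4 and 0.347 for Slc2a1, around a median of 0.207 for the 11048 rows with a mean of at least 1 FPKM. Dividing each member by the Gapdh row carried the scatter of that row into the ratio. The SD of the log2 ratio within a group, pooled over the groups, was between 0.911 and 1.16 for the 9 ratios, and between 0.135 and 0.440 when the divisor was Gapdh with its copies. All 9 ratios to the row were lower with Tec (smallest exact permutation p = 0.5, two-sided, adjusted p = 1), and 6 of 9 ratios to the sum were lower (smallest exact permutation p = 0.2, adjusted p = 0.6). With 3 libraries against 3 the exact test cannot go below 0.1.

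The genes whose layout over the 6 libraries was nearest to that of Gapdh, by root mean square difference of centred log2 values among 2926 genes with a mean of at least 10 FPKM, were Gm11451 (0.52), Gm7536 (0.54) and Sumo2 (0.55). Gm11451 and Gm7536 are processed pseudogenes, and none of the 3 was close. Slc2a1, the member with the next largest spread, had much nearer neighbours in Ywhah (0.03), Nptn (0.04) and BC031181 (0.05).

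Muscle-type and general forms of the same enzyme were compared as a ratio within each library, which the scaling of a library leaves unchanged. Pfkm/Pfkl was 10.7, 10.6 and 15.4 with Ang II and 17.3, 16.4 and 17.5 with Tec. It was the 1 of 8 ratios without overlap, higher with Tec by 0.50 on the log2 scale (exact permutation p = 0.1, the smallest possible, adjusted p = 0.4 over the 8). Ldha/Ldhb, the lactate dehydrogenase subunits of muscle and heart type, was 0.573, 0.644 and 0.302 against 0.316, 0.290 and 0.301. In that ratio the 2 libraries that stood apart were Ang II replicates 1 and 2, and Ang II replicate 3 lay with the Tec group. Slc2a1/Slc2a4 was 0.0548, 0.0786 and 0.0340 against 0.0398, 0.0531 and 0.0420. Hk1/Hk2 was 0.652, 0.635 and 0.358 against 0.462, 0.432 and 0.367. Both overlapped between the groups, with exact permutation p-values of 0.6 and 0.4 for 3 libraries against 3. The smallest p of the other ratios (Pfkm/Pfkp, Pgam2/Pgam1, Eno3/Eno1 and Pdk4/Pdk2) was 0.2 in the exact permutation test. Between Ang II replicate 3 and Ang II + Tec replicates 1 and 3, the libraries with little atrial marker RNA, the Pfkm/Pfkl difference was 0.17.

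**Figure D5:**
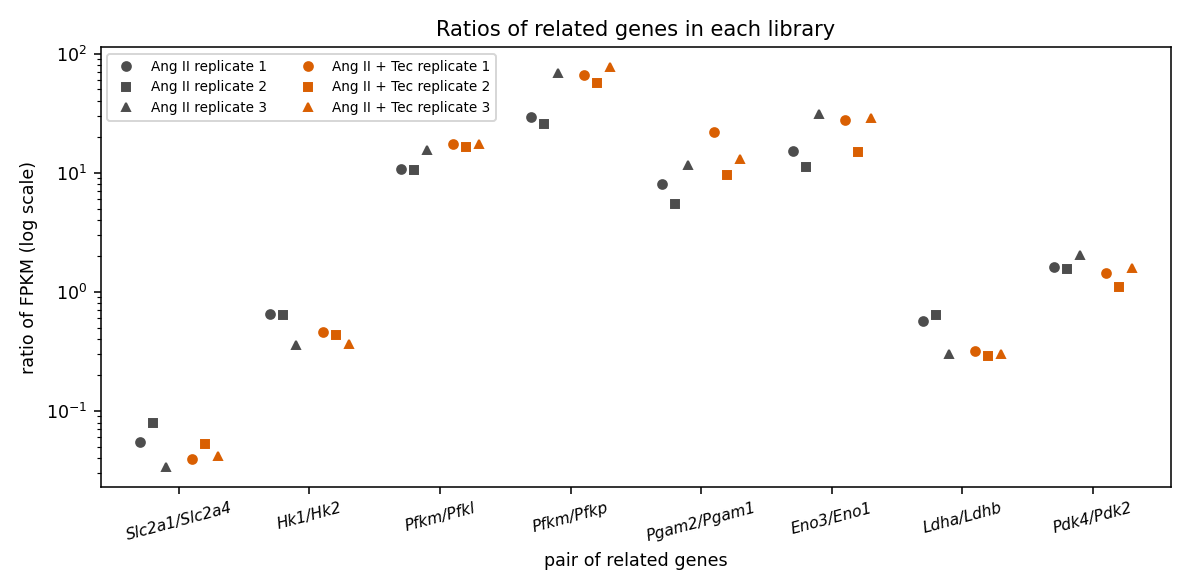
Ratios of FPKM on a log scale for 8 pairs of related genes in each library (Ang II grey, Ang II + Tec orange). Pfkm/Pfkl alone separates the groups, and Ang II replicate 3 (grey triangle) lies beside the Tec libraries for Pfkm/Pfkp and Ldha/Ldhb.

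Of 26 other glycolysis genes, 17 were tested and 0 passed an adjusted p of 0.05 (limma), with 3 lower and 1 higher at an unadjusted p of 0.05, where 16.5% and 2.09% of all tested rows were. Of the 17, 13 were lower and 4 higher, where 80% of all rows were lower, and their median log2 fold change was -0.33 against -0.17 for all rows. The lowest were Slc16a3, the lactate exporter MCT4 (-0.71, SE 0.32, and 0.042 in the libraries with little atrial marker RNA), and Slc2a12, the transporter GLUT12 (-0.65, SE 0.12, adjusted p = 0.154), which was at 1.72, 1.81 and 2.09 FPKM against 0.69, 0.79 and 1.04 FPKM. The highest were Ldhd, which oxidizes D-lactate (0.58, SE 0.21), and Ldhb (0.33, SE 0.16). These 2 of the 17 were higher in every Tec library, where 2.9% of all tested rows were. On the lower side 4 of the 17 did not overlap, where 18.9% of rows did not. The median of this list was -0.091 after median-of-ratios scaling and 0.042 without the 3 libraries rich in atrial markers.

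The 8 tested genes of the phosphofructokinase-2 list, which holds the enzymes that set fructose-2,6-bisphosphate and brakes on glucose uptake, had 4 lower, 4 higher and 0 called, where 80% of all tested rows were lower and 0.183% were called. Txnip, which restrains glucose uptake, was at 169.8, 148 and 204 FPKM against 245, 209 and 238 FPKM (log2 fold change 0.41, SE 0.15, adjusted p = 0.234, limma). It was above the Ang II group in every Tec library, as were 2.9% of all tested rows. Pfkfb2, the heart form, was at 0.38 (SE 0.15). Arrdc4, a relative of Txnip, was at -0.40 (SE 0.13). Pfkfb4 was at -0.12 (SE 0.13), and at 0.063 in the libraries with little atrial marker RNA. Of the genes for the entry of pyruvate into the mitochondrion and its oxidation, 0 of 14 were called, where 0.183% of all rows were. The upper end of that list held Pdk2 (0.35) and Pcx, pyruvate carboxylase (0.23, and -0.033 without Ang II + Tec replicate 2). The lower end held Pdk3 (-0.57) and Pdp1, a pyruvate dehydrogenase phosphatase (-0.17, and 0.048 after median-of-ratios scaling).

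For glycogen, 0 of 20 genes were called, where 0.183% of all rows were. Pygm, the muscle phosphorylase that releases glucose from glycogen, was at 117, 88.6 and 134 FPKM against 184, 159.5 and 159.2 FPKM, higher in every Tec library, as were 2.9% of all rows (log2 fold change 0.58, SE 0.17, adjusted p = 0.218), and Ppp1r3a was at 0.20. Pgm2 (-0.55) and Stbd1, which tethers glycogen (-0.63), were the lowest. In the libraries with little atrial marker RNA Ppp1r3a was at -0.049.

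Of 21 genes of insulin signalling and transporter trafficking, 1 was called, where 0.183% of all tested rows were. Rab4a, a small GTPase of the recycling endosomes through which GLUT4 passes, fell from 6.37, 6.00 and 5.28 FPKM to 1.36, 2.14 and 1.56 FPKM, a log2 fold change of -1.36 (SE 0.14, adjusted p = 0.0255, limma). The call was lost without any single library other than Ang II replicate 3 (adjusted p up to 0.214), with the difference between -1.48 and -1.28, and with no filter on low FPKM (adjusted p = 0.115). Among the libraries with little atrial marker RNA the difference was -1.35 (adjusted p = 0.449). Akt1, the kinase downstream of the insulin receptor, was at 60.1, 56.8 and 52.7 FPKM against 35.1, 35.4 and 33.7 FPKM (-0.68, SE 0.10, adjusted p = 0.0917). Irs2 (0.38) and Insr (0.24), the insulin receptor, were the highest of the list, whose median was -0.15, and 0.084 after median-of-ratios scaling. Insr was at -0.014 in the libraries with little atrial marker RNA.

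Of 19 regulators of these pathways, 0 were called, where 0.183% of all rows were, and the median was 0.0027 against -0.17 for all rows. The list's median moved to 0.17 after median-of-ratios scaling and to -0.13 without the 3 libraries rich in atrial markers. Egln3, an oxygen-sensing prolyl hydroxylase, was at 26.4, 21.9 and 17.0 FPKM against 11.4, 12.3 and 12.2 FPKM (-0.79, SE 0.16, adjusted p = 0.180), and Vhl was at -0.39. Klf15, a factor that promotes Slc2a4, was at 0.55 and Epas1 at 0.35, which came to -0.13 in the libraries with little atrial marker RNA. The 14 PPAR targets, which share the control of Pdk4 by fatty acids, had 0 called, 11 higher and 3 lower, where 80% of all tested rows were lower, with a median of 0.21 against -0.17 for all rows. Without the 3 libraries rich in atrial markers that median was -0.14. Acot2 (0.55) and Cd36, the fatty acid carrier (0.37), were the highest. Ucp3 (-0.39) and Cpt1a, which admits fatty acids to the mitochondrion (-0.11), were the lowest. Acot2 was at -0.15 in the libraries with little atrial marker RNA, and Ucp3 at 0.014 without Ang II replicate 3. With array weights Ucp3 was at 0.085, and after median-of-ratios scaling Cpt1a was at 0.089.

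Glycolysis genes are known targets of hypoxia-inducible factors, and ACGTG is 1 form of their core motif. The start regions (250 bases before to 50 after each start, RefSeq, GRCm38.p6) were searched for it on both strands. Other forms of the core were not counted, and the share over all genes is not matched for base content. Of 9 members with an entry, 8 hold ACGTG in at least 1 of their start regions, all but Pdk4, against 21.8% of 27025 genes. No entry was found for Slc2a4. The members have 16 start regions in all, of which 10 hold the motif, against 19.6% of 32851. CACGTG, which contains ACGTG, was found in Pfkm alone (8.09% of genes), GGGCGG in 5 members (38.2% of genes) and TATAAA in Slc2a1 alone (15.7% of genes). The region before Pgk1, the 1 gene without overlap between the groups, is shown with its 2 matches to ACGTG, 1 on each strand, in capitals (GRCm38.p6 chrX:106186850-106187099, plus strand). A match is a string of letters, and binding was not measured here.
Pgk1: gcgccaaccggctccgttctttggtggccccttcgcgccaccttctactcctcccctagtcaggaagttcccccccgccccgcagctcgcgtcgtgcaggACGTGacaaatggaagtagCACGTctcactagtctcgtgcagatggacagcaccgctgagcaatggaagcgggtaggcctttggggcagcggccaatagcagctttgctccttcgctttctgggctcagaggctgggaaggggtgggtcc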

How the data were processed

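The authors deposited 1 table of FPKM per gene for the 6 libraries (poly(A) RNA, paired-end reads). The submitters' processing notes name HISAT2 2.0, StringTie 1.3.0, Bowtie 0.12.2 and the build mm8. The deposited coordinates are those of GRCm38, since 90.6% of 30832 gene IDs shared with GENCODE M21 have the same start and end. The labels name a NovaSeq and the methods a HiSeq instrument. Fragment counts were not used here. From the spacing of low values, the depth of the libraries relative to each other was 0.954 to 1.29, and 1 fragment on 1 kb was worth 0.0486 to 0.0659 FPKM. No library was a repeat of another (15 pairs, Spearman 0.920 to 0.981).

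The filter asked for at least 0.5 FPKM in 3 or more of the 6 libraries. Rows that passed were fitted on log2(FPKM + 1) with limma 3.58.1 (R 4.3.3, trended variance, no covariates), with Benjamini-Hochberg adjustment over all tested rows and a call at an adjusted p of 0.05. Ratios were compared with two-sided exact permutation tests (scipy 1.17.1). Near-identical copies were found with blastn 2.17.0. The fit was tested on simulated data. All 10 members are named. In each related list the 2 highest and 2 lowest genes by log2 fold change, and each called gene, are named, as are the partners in the ratios and the extremes of the reference genes. Some genes of the fixed lists are not reported here. Tpi1 and Actb were named after their values were seen. The members and lists were chosen with earlier results of these data known. No column of another sample is in the table (0 left unused). Alternatives covered the pseudocount (0.1), the filter, 3 scalings, weights, a replicate block, single libraries left out and, chosen after seeing the data, copies summed and libraries with little atrial marker RNA (4 markers summing to under 10 FPKM).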

Additional observations from a re-analysis of the deposited data

How the results depend on the processing

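Over 17 alternatives for each of the 10 genes, 147 of 170 log2 fold changes kept their direction and their side of the threshold, 5 passed it and 18 changed sign. Of 831 for the other named genes, 731 did so, 62 passed the threshold, 7 lost it and 31 changed sign. Of 119 medians of the related lists, 22 moved by more than the spread between libraries; the regulators ranged from -0.15 to 0.19, the insulin and trafficking genes from -0.32 to 0.089 and the PPAR targets from -0.14 to 0.40. The number of genes called over all rows, 24, was 3 with no filter on low FPKM, 15 with a mean of at least 1 FPKM, 3542 with array weights (a fit that stopped before converging) and 2 to 3776 when single libraries were left out, the 3776 without Ang II replicate 3 and at most 7 without any other. Of the 10 genes, 2 (Pgk1 and Slc2a1) were called with array weights, where 27.1% of all rows were, and 0 to 3 when single libraries were left out, all 3 (Pgk1, -0.58; Slc2a1, -0.61; Hk1, -0.50) without Ang II replicate 3, where 28.8% of all rows were; the cause was not tested. Median-of-ratios scaling and quantile normalization moved the median of all genes from -0.17 to 0.0087 and 0.020 and the share of lower rows from 80% to 48.2% and 46.1%, with 11 higher and 12 lower calls, and 12 and 12, against 13 and 11. Of the 10 genes, 4 and 5 were then lower, against 6.

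With libraries of little atrial marker RNA only (1 against 2, so that the lone library is assumed to vary like the others), limma called 0 genes, with 1112 at an unadjusted p of 0.05; fewer libraries entered this fit. Sign changes there were 0.041 for Hk1, -0.15 for Hk2, 0.0023 for Pkm, -0.42 for Pdk4, 0.14 for Eno1, 0.20 for Gpi1, 0.080 for Ldha, -0.13 for Sdha, 0.042 for Slc16a3, 0.063 for Pfkfb4, -0.049 for Ppp1r3a, -0.014 for Insr, -0.13 for Epas1 and -0.15 for Acot2. Differences in log2 ratio moved to 0.27 for Slc2a1/Slc2a4, 0.20 for Hk1/Hk2, 0.17 for Pfkm/Pfkl, 0.055 for Pfkm/Pfkp and 0.029 for Ldha/Ldhb, and over the Gapdh row to -1.72 for Slc2a4, -1.37 for Hk2, -1.21 for Pfkm, -1.23 for Aldoa, -1.21 for Pkm and -1.63 for Pdk4. The other sign changes were, with median-of-ratios scaling, 0.13 for Aldoa, 0.13 for Pkm, 0.23 for Gpi1, 0.017 for Tbp, 0.048 for Pdp1 and 0.089 for Cpt1a; with quantile normalization, 0.090 for Pkm, 0.23 for Gpi1, 0.048 for Tbp, 0.026 for Pfkfb4, 0.042 for Pdp1 and 0.098 for Cpt1a; with mitochondrial rows left out, 0.020 for Gpi1; with array weights, -0.11 for Pcx and 0.085 for Ucp3; and with copies summed, -0.048 for Gapdh, whose SD became 0.123. When single libraries were left out, sign changes were met for Hk2 from -0.071 to 0.071, Gapdh from -0.18 to 0.69, Pdk4 from -0.22 to 0.27, Eno3 from -0.073 to 0.18, Gpi1 from -0.13 to 0.076, Tbp from -0.18 to 0.0030, Pcx from -0.033 to 0.38 and Ucp3 from -0.70 to 0.014.

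With the replicate block, 23 genes and 0 of the 10 were called. Deviations of same-numbered libraries correlated at -0.039, 0.429 and 0.379, so the numbers are not taken to pair them. Depth was inferred from the spacing of low values and not from fragment counts, and low rows such as Slc2a1 rest on the fewest fragments per length.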
